A study of Mus musculus with 11 samples.

Results

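Small nucleolar RNAs and the genes that host them were measured in forelimb buds of E10.5 mouse embryos. Members were the rows of the gene count table named Snord, Snora or Scarna, or Snhg with a number, together with Gas5, that held at least 10 reads summed over the 11 libraries. Of 147 rows with such a name, 71 met that minimum, out of 47517 rows in the table. They comprised 37 of 83 box C/D rows (Snord), 15 of 39 box H/ACA rows (Snora), 4 of 9 Cajal body RNA rows (Scarna) and 15 of 16 host rows, namely 14 Snhg genes and Gas5. The rule uses names and read totals over both genotypes.

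The embryos had a C57BL/6 background. The 6 mutants were Gmnn f/f; Prx-Cre and the 5 controls were Gmnn +/f; Prx-Cre, so that every embryo carried the Cre transgene and at least 1 floxed allele of Gmnn, the gene for the replication licensing inhibitor geminin. Prx-Cre acts in limb bud mesenchyme, so the ectoderm, blood and vessel cells of a bud are not targeted. Embryos came from 4 litters, here called A to D. Of the controls, numbers 1 and 2 came from litter A, 3 from B, 4 from C and 5 from D. Of the mutants, numbers 1 and 2 came from litter A, 6 from B, 5 from C, and 3 and 4 from D.

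Small nucleolar RNAs guide chemical modification of other RNAs by base pairing. Box C/D RNAs direct 2′-O-methylation with the methyltransferase fibrillarin, and box H/ACA RNAs direct pseudouridylation with the synthase dyskerin. Most target ribosomal RNA, while Cajal body RNAs target spliceosomal RNAs. In mammals most of them are cut from introns, either of protein-coding genes, many of which serve translation, or of non-coding host genes such as Gas5 and the Snhg genes, whose spliced RNAs are often degraded by nonsense-mediated decay.

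The sequences below are those of the small RNAs on which the later results turn. They comprise the RNA with the most reads in each box class and 3 box C/D RNAs described below for their genotype values. All were read from GENCODE M21 transcripts, on mm10 coordinates. In box C/D RNAs the capitals mark the motif TGATGA where it lies in the first 15 bases and CTGA where it lies in the last 15. In box H/ACA RNAs they mark ACA directly before the last 3 bases.
Snord104 (chr11:106500993-106501062, plus strand): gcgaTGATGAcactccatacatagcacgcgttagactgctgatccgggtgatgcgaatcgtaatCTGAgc
Snord65 (chr11:62604515-62604586, plus strand): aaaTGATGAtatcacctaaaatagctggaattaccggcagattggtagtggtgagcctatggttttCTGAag
Snord7 (chr11:83294304-83294400, plus strand): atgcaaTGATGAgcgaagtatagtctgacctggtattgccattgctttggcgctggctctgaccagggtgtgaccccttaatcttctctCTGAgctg
Snord73a (chr3:86138791-86138858, minus strand): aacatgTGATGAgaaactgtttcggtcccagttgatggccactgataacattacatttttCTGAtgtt
Snora57 (chr19:8888538-8888685, minus strand): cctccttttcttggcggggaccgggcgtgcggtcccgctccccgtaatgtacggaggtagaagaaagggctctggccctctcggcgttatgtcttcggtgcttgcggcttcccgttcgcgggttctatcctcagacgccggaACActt

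The motifs that name the classes were searched in every small RNA member. TGATGA, the core of the C box, stood in the first 15 bases of 19 of 37 box C/D members, or 51.4%, against 0.299% of 139962 other M21 transcripts of at least 60 bases. CTGA, the D box, stood in the last 15 bases of 34 of 37, or 91.9%, against 6.85% of the other transcripts. ACA stood directly before the last 3 bases of 12 of 15 box H/ACA members, or 80.0%, against 2.26% of the other transcripts and 0 of 37 box C/D members. All searches were on the transcribed strand.

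Library totals ran from 14721181 to 19733288 reads, and the members took 0.158% to 0.237% of them. Gmnn was lower in the mutants, at 180 ± 40.2 CPM (SD, n = 5; read counts relative to library totals adjusted by TMM factors) in controls and 115 ± 16.1 (SD, n = 6) in mutants, a log2 fold change of −0.67 ± 0.10 (SE; adjusted p = 0.0291 in edgeR's quasi-likelihood test with Benjamini-Hochberg adjustment). Summed over Prrx1, Tbx5, Fgf10, Hand2 and Twist1, the forelimb mesenchyme list was at 372 to 519 CPM in controls and 387 to 465 in mutants. Its hindlimb counterpart, Tbx4 and Pitx1, was at 0.841 to 6.80 and 2.02 to 2.91 CPM. The 4 blood genes Hba-x, Hbb-y, Hbb-bh1 and Alas2 summed to 12790 to 32850 CPM in controls and 16010 to 55000 in mutants.

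Whether a small RNA could be counted at all followed its position among other genes' exons. Of the 131 small RNA rows, 71 shared no base with another gene's exon, and 52 of these were members. Another 12 shared part of their bases, and 4 of these were members: Snord33 (35.7% of its bases), Snord42b (31.9%), Scarna13 (23.6%) and Snora34. The remaining 48, of which 32 were box C/D and 16 box H/ACA, lay wholly inside another gene's exon, and each of the 48 held 0 reads in every library. The counting program discards a read that lies over exons of more than 1 gene unless told otherwise, and the recorded command has no such option. A 0 in such a row is therefore no measure of the RNA.

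Several small RNAs of the host genes belong to that uncounted set. Snord47, Snord78 and Snord80 lie in annotated exons of Gas5, Snord50a and Snord50b in exons of Snhg5, Snord22 in an exon of Snhg1, and Snora24 in an exon of Snhg8. The hosts likewise lose reads over bases shared with any other gene, small RNA or not. Overlapped bases made up 17.8% of the Gas5 exons, 86.3% of Snhg3 (38 reads in all) and 91.4% of Snhg7 (13 reads). In Snhg3 the overlapping genes were Gm17300 and Rcc1 as well as Snora73a. The low counts of Snhg3 and Snhg7 are thus no measure of their transcription. In Snhg1, Snhg8, Snhg20 and Snhg7 the annotated exons cover the gene from end to end (2969, 853, 2166 and 139 bases), so their counts do not separate spliced from unspliced RNA. Exons also cover the greater part of Gas5 (3760 bases), Snhg4, Snhg5, Snhg6, Snhg11, Snhg12 and Snhg17. Their counts, and levels per kilobase of exon, therefore separate the 2 kinds of RNA only poorly.

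**Figure D1:**
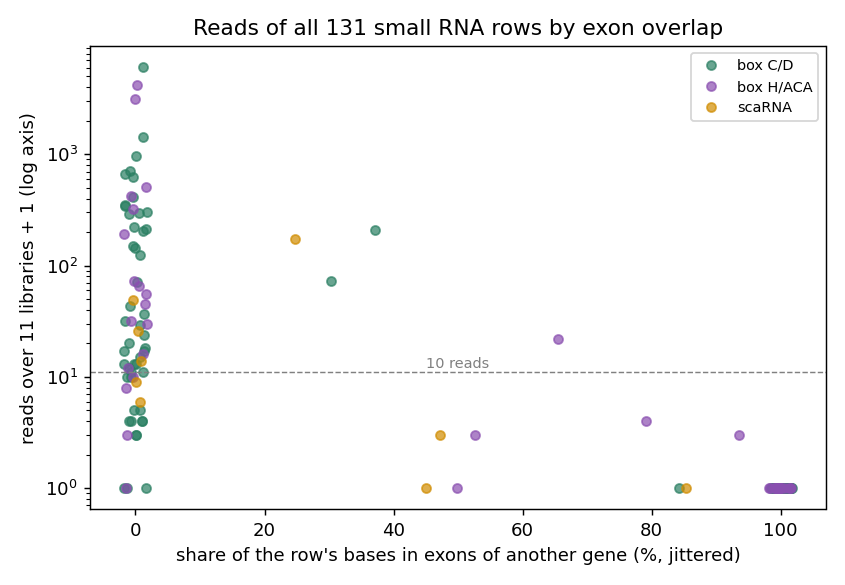
Each point is 1 of the 131 small RNA rows: the horizontal axis gives the percentage of its bases inside exons of another gene (jittered) and the vertical axis its reads over the 11 libraries plus 1, on a log scale. The dashed line marks the 10 reads required of a member, and the 48 rows at 100% overlap all lie at 0 reads.

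Most of the counted small RNAs lay inside another gene on the same strand. Such a host was present for 48 of 56 small RNA members. Ribosomal protein genes held 20 of them with 6338 reads, other protein-coding genes 18 with 1528 reads, non-coding genes outside the Snhg family 6 with 3897 reads, and the Snhg genes 4 with 1150 reads. The 8 members with no such host carried 10638 reads, most of them in Snord104 (6084 reads) and Snora57 (4227 reads). Of 40 such hosts, 5 held more than 1 member. Rpl13a, a large-subunit ribosomal protein gene, held Snord32a, Snord33, Snord34 and Snord35a, and the non-coding 2410006H16Rik held Snord49a, Snord49b and Snord65. RNAs within one such host share its primary transcript and are not independent measures.

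Within each class a single member carried much of the signal. Gas5 accounted for 57.1% of host reads, Snord104 for 42.9% of box C/D reads, Snora57 for 46.4% of box H/ACA reads and Scarna13 for 66.5% of Cajal body RNA reads. Per kilobase of exon, mean host levels ran in the order Gas5 (286 CPM per kb), Snhg5 (123), Snhg6 (113), Snhg8 (88.0), Snhg9 (70.5), Snhg1 (50.4), Snhg18 (25.5), Snhg12 (20.1), Snhg20 (14.9), Snhg4 (13.1), Snhg17 (5.66), Snhg11 (1.54) and Snhg14 (0.321). Snhg14, the very long transcript of the imprinted Prader-Willi region, was thus the lowest of the 13 hosts tested. Among box C/D RNAs, Snord104 led at 481 CPM per kb, followed by Snord65 at 111 and Snord7 at 53.9. Among box H/ACA RNAs, Snora57 stood at 159 CPM per kb and Snora68 at 131. A read needs to touch a row by only 1 base, so per-length levels of RNAs this short run high and are set side by side only within a class. Lengths differ within a class too, among tested hosts from 183 bases for Snhg9 to 26093 for Snhg14. The orders above therefore depend on length as well. Small RNA rows inside a host also collect reads from its unspliced introns, so these levels are not those of the processed RNAs alone.

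The filter on low counts left 40 of the 71 members in the tests: 20 box C/D, 6 box H/ACA, 1 Cajal body RNA and 13 hosts. The 31 others held 10 to 72 reads over all libraries. Among tested hosts the spread of control libraries (coefficient of variation) had a median of 19.0%, where read sampling alone gives 3.91%. The medians for box C/D were 25.2% against 19.8%, and 5 of the 20 varied no more than sampling predicts. For box H/ACA they were 31.5% and 16.0%.

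No member passed the genotype test. Of all 15821 genes tested, 345 or 2.18% did (0.702% higher and 1.48% lower in mutants), at an adjusted p under 0.05 by edgeR's quasi-likelihood test, in a model that blocked on litter. The 345 rests on few embryos: leaving out any library other than mutant 2 moved it by more than 1.5 times, down to 1 without control 4 or mutant 5 and up to 850 without control 5. At an unadjusted p under 0.05, 10 of the 40 members passed, a share close to the 21.4% of all genes. No tested member had mutant libraries all above or all below the controls, against 2.59% of all genes. DESeq2 called 1 member (Snora57) beside 9.99% of all genes with an adjusted p, and limma-voom 0 beside 2.77%. Without a filter on low counts, edgeR called 5 members, all higher in mutants, beside 5.35% of all genes: Snora57, Gas5, Snhg8, Snhg4 and Snhg12. Without control 5 it called 3 (Snord104, Snora57 and Snhg8) beside 5.41%.

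All 13 tested host genes had a positive log2 fold change, where 50.7% of all genes did. The hosts were read from the same libraries, so the 13 are not independent measures and not replicates of a condition. The median host value was 0.23, from 0.05 for Snhg5 to 0.34 for Snhg12, beside a median of 0.0038 over all genes. That median was 0.14 without mutant 2 and 0.32 without control 5. There were 6 hosts with an unadjusted p under 0.05, all higher in mutants, against 9.84% of all genes in that direction. They were Gas5, Snhg8, Snhg4, Snhg12, Snhg20 and Snhg11, and their adjusted p-values in edgeR's quasi-likelihood test ran from 0.123 to 0.234.

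Gas5, a gene first known from growth-arrested cells, stood at 875, 1013, 821, 940 and 1232 CPM in controls 1 to 5. In mutants 1 to 6 it stood at 1018, 1404, 1146, 1196, 1076 and 1125 CPM. Every mutant lay above controls 1 to 4, mutant 1 only narrowly above control 2, and control 5 lay above every mutant but mutant 2. The log2 fold change was 0.24 ± 0.10 (SE; adjusted p = 0.209 in edgeR's quasi-likelihood test), and without mutant 2 it was 0.14.

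Snhg8, host of Snora24, stood at 65.8, 73.3, 50.2, 53.9 and 85.8 CPM in controls 1 to 5. In mutants 1 to 6 it stood at 84.8, 108, 71.6, 77.2, 71.8 and 82.9 CPM. Control 5 was again the highest control and exceeded every mutant but mutant 2. The log2 fold change was 0.33 ± 0.12 (SE; adjusted p = 0.149 in edgeR's quasi-likelihood test), and without control 5 it was 0.52 with an adjusted p of 0.0235.

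Snhg12, which contains Snora16a, stood at 31.1, 31.4, 18.8, 28.2 and 34.1 CPM in controls 1 to 5. In mutants 1 to 6 it stood at 35.1, 38.6, 31.8, 40.3, 35.5 and 35.4 CPM. Mutant 3 was the only mutant below the highest control, and control 3 was the lowest library. Its log2 fold change of 0.34 ± 0.12 (SE; adjusted p = 0.123 in edgeR's quasi-likelihood test) was positive in all 4 litters, as it was for Snhg11, Snhg14 and Snhg18. Without control 3 or mutant 6 the value of Snhg12 was 0.21. These 2 are the only libraries of litter B, so that leaving out either removes that litter's comparison. Such agreement held for 4 of 13 hosts and for 12.5% of all genes.

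Snhg4 had a log2 fold change of 0.33 ± 0.15 (SE), with controls at 32.8 to 71.6 CPM and mutants at 61.1 to 80.5. It was 0.15 without control 3 or mutant 6 and 0.52 without control 5. Snhg5, Snhg1 and Snhg6, the next most abundant hosts after Gas5, lay closer to 0. Snhg5 had 207 ± 28.9 CPM (SD, n = 5) in controls and 216 ± 11.9 (SD, n = 6) in mutants, a log2 fold change of 0.05 ± 0.08 (SE). Those of Snhg1 and Snhg6 were 0.09 ± 0.08 and 0.10 ± 0.08, and with each library left out they ran from 0.02 to 0.17 and from 0.05 to 0.19.

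**Figure D2:**
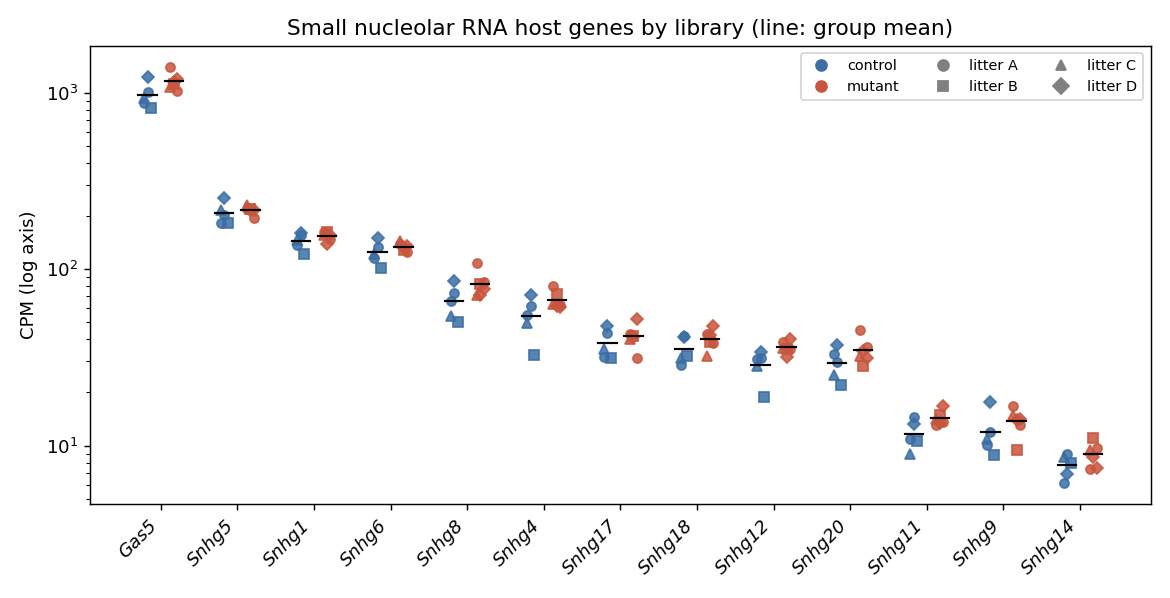
CPM of the 13 tested host genes on a log axis, 1 point per library, with colour for genotype, symbol for litter and a line at each group mean. Mutant means lie above control means for each gene, the point ranges overlap throughout, and the litter D control (diamond) is the highest control for 10 of the 13 genes.

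The genotype difference of the hosts was not shared by all litters. All 15 host members together summed to 1735 ± 271 CPM (SD, n = 5; 1442 to 2151) in controls and 2005 ± 174 CPM (SD, n = 6; 1813 to 2323) in mutants, a ratio of 1.16. Within litters the mutant to control ratio was 1.21 in A, 1.37 in B, 1.15 in C and 0.931 in D. In litter D control 5 stood at 2151 CPM, above mutants 3 and 4 at 1951 and 2053. By gene, 12, 13, 13 and 4 of the 13 hosts were higher in mutants in litters A, B, C and D. Whether the genotype difference itself depends on litter was not tested.

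Another measure of the libraries moved with the host level. Genes whose transcripts hold a run of at least 18 T bases (959 tested genes) had a mean log2 CPM of 4.72 to 4.82 in controls 1 to 4 and 4.45 in control 5. Mutant 5 stood at 4.63, and the remaining mutants ranged from 4.26 to 4.54. The 2 libraries with the most host RNA, mutant 2 and control 5, were thus at 4.26 and 4.45 on that measure, and the library with the least, control 3, at 4.80. With that level as a covariate, an alternative chosen after seeing the data, the host median was −0.05 and 3 of 13 hosts stayed above 0. In all the other alternatives run, 13 did. The measure and the genotype largely coincide in these libraries, and their parts in the host difference cannot be told apart. The summed blood genes were also lowest in control 3 (12790 CPM) and highest in mutant 2 (55000 CPM). They did not follow the host level throughout. Control 2 had 32850 CPM of blood genes and 1822 CPM of hosts, and control 5 had 22380 and 2151 CPM. The part of blood was not tested. In bulk samples, fewer cells of a type and less RNA per cell cannot be told apart.

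Box C/D RNAs had values on both sides of 0. Of 20 tested, 14 had a log2 fold change above 0, with a median of 0.14 and a range of −0.56 to 0.79. That median was 0.01 without control 3 or mutant 6, 0.07 without mutant 4, and 0.22 without control 4 or mutant 5. With the T-run level as covariate it was 0.24. Snord65 and Snord35b were higher and Snord7 lower at an unadjusted p under 0.05, against 9.84% and 11.5% of all genes in these directions. Summed over the 37 members, the class stood at 73.7 ± 8.22 CPM (SD, n = 5) in controls and 82.1 ± 6.61 (SD, n = 6) in mutants, a ratio of 1.11. The ratio was 1.12 in litter A, 1.33 in B, 1.27 in C and 0.898 in D. With Snord104, the most abundant member, left out, the class ratio over all litters was 1.054.

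Snord104, a ribosomal RNA guide, stood at 30.8, 32.9, 27.2, 23.6 and 37.6 CPM in controls 1 to 5. In mutants 1 to 6 it stood at 37.9, 51.4, 33.7, 28.7, 32.6 and 34.2 CPM. Control 5 was the highest control and mutant 4, of the same litter, the lowest mutant. This was a log2 fold change of 0.26 ± 0.13 (SE; adjusted p = 0.264 in edgeR's quasi-likelihood test), and without control 5 it was 0.44 with an adjusted p of 0.0444. Without mutant 2 it was 0.16 (adjusted p = 0.503 in the same test), and without litter A 0.12 (adjusted p = 0.728).

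Snord35b, a box C/D RNA with a relative in Snord35a, stood at 1.34, 1.49, 1.69, 0.930 and 0.911 CPM in controls 1 to 5 and at 2.02, 1.59, 2.02, 1.90, 2.19 and 2.27 CPM in mutants 1 to 6. Mutant 2 was the only mutant below the highest control, control 3, and mutants were higher in all 4 litters. The log2 fold change was 0.69 ± 0.25 (SE; adjusted p = 0.140 in edgeR's quasi-likelihood test) on 303 reads in all. Over all alternatives run it ranged from 0.57 to 1.17. Snord35a, which lies in Rpl13a, had a log2 fold change of 0.02 ± 0.27 (SE) on 352 reads, and its libraries ranged from 0.927 to 3.29 CPM in controls and 1.68 to 2.25 in mutants.

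The 3 RNAs of 2410006H16Rik share a primary transcript, and their log2 fold changes ran from −0.01 to 0.44. Snord65 had a log2 fold change of 0.44 ± 0.17 (SE; adjusted p = 0.174 in edgeR's quasi-likelihood test), from 5.29 to 8.50 CPM in controls and 7.31 to 10.7 in mutants. Snord49a stood at −0.01 ± 0.17 (SE) and Snord49b at 0.08 ± 0.17 (SE), and the host itself at 0.21 ± 0.11 (SE). The differences among them were not tested. The 4 RNAs of Rpl13a likewise ran from −0.23 for Snord32a to 0.41 for Snord34, with SE of 0.26 to 0.34 and the host at 0.21 ± 0.10.

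Snord7, which guides methylation of the spliceosomal U6 RNA, was the box C/D RNA with the most negative value. It stood at 9.51, 6.44, 7.36, 6.22 and 3.15 CPM in controls 1 to 5. In mutants 1 to 6 it stood at 4.40, 2.58, 2.96, 2.32, 7.65 and 4.97 CPM. Controls 1 to 4 and mutant 5 were high, and control 5 lay among the other mutants. Its log2 fold change was −0.56 ± 0.24 (SE; adjusted p = 0.208 in edgeR's quasi-likelihood test). It was −1.19, −0.56, 0.29 and −0.26 in litters A to D, so that litter C ran the other way, and −0.18 with litter A left out.

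Snord73a, from an intron of the ribosomal protein gene Rps3a1, stood at 3.75, 2.78, 2.67, 2.61 and 1.54 CPM in controls 1 to 5. In mutants 1 to 6 it stood at 1.39, 0.992, 1.34, 1.84, 2.60 and 2.76 CPM. As for Snord7, controls 1 to 4 and mutant 5 were high and control 5 low, and mutant 6 was high as well. The log2 fold change was −0.51 ± 0.30 (SE; adjusted p = 0.343 in edgeR's quasi-likelihood test), with −1.37 in litter A and −0.01 to 0.05 in the others, and 0.03 with litter A left out. Without control 1 it was −0.34 and without mutant 2 −0.31. With the T-run level as covariate, Snord7 was at 0.35 and Snord73a at 0.40. Controls 1 to 4 and mutant 5 are the 5 libraries with the highest T-run level, and in these libraries that level and genotype cannot be told apart.

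Of the other box C/D RNAs named by the rule given below, Snord87, Snord49a and Snord72 lay within 0.02 of 0 on the log2 scale. Their SE were 0.21, 0.17 and 0.29. Snord34 stood at 0.41 ± 0.27 (SE) on 213 reads. The widest positive value, 0.79 ± 0.56 (SE) for Snord42b, rested on 72 reads.

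**Figure D3:**
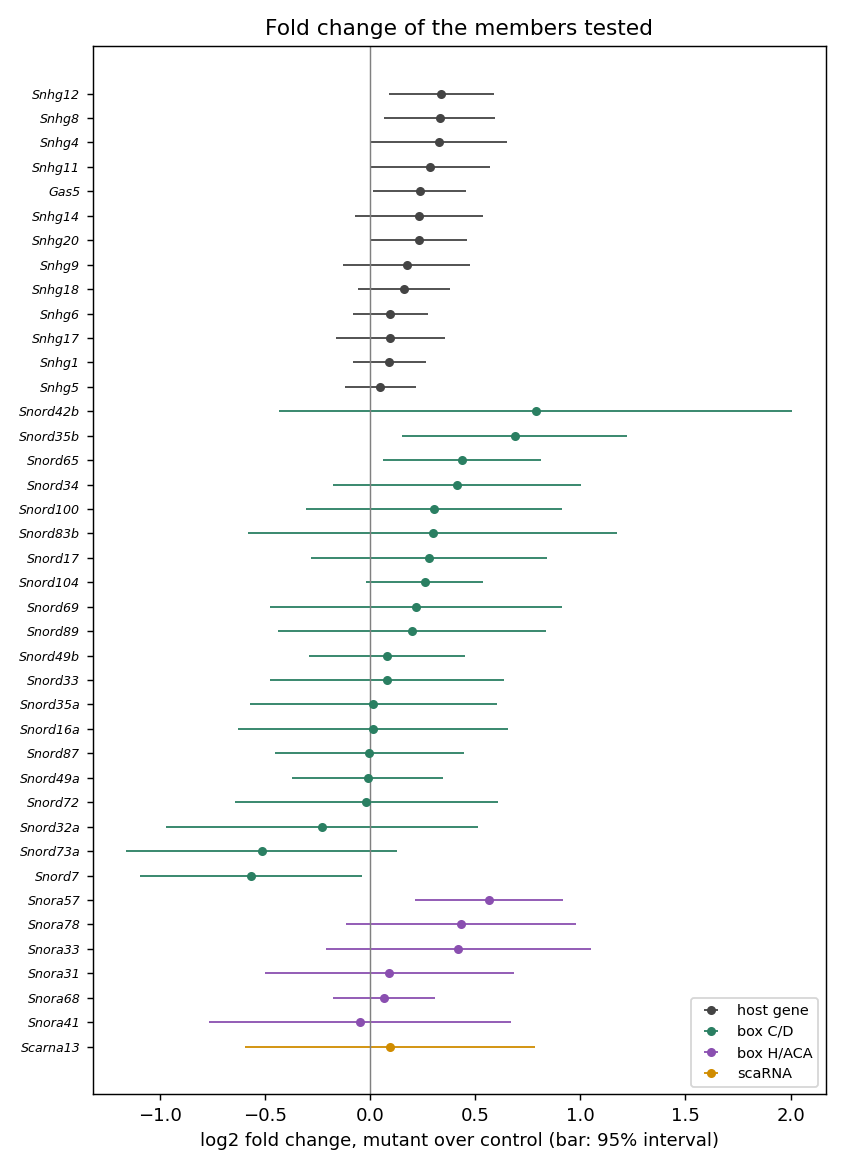
Log2 fold change of mutant over control for the 40 tested members with 95% intervals, ordered within class. All 13 host values lie to the right of 0 with short intervals, while box C/D values lie on both sides with wider intervals.

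Among box H/ACA RNAs, 5 of 6 tested members had a positive log2 fold change, with a median of 0.26. That median was 0.12 without control 3 or mutant 6, 0.40 without control 5 and 0.46 without litter A. With the T-run level as covariate it was 0.12. The class sum over 15 members was 44.2 ± 7.32 CPM (SD, n = 5) in controls and 55.8 ± 7.76 (SD, n = 6) in mutants, a ratio of 1.27. By litter the ratio was 1.31, 1.73, 1.25 and 0.968 in A to D. Litter D once more showed no excess in mutants. With Snora57, the most abundant member, left out, the class ratio over all litters was 1.115.

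Snora57 came closest to the threshold of all members. It stood at 22.2, 21.1, 13.5, 13.6 and 23.1 CPM in controls 1 to 5 and at 27.3, 40.4, 22.4, 21.8, 20.6 and 32.2 CPM in mutants 1 to 6. Mutants 1, 2 and 6 lay above every control, and the other 3 mutants fell within the control range. The log2 fold change was 0.57 ± 0.16 (SE; adjusted p = 0.0791 in edgeR's quasi-likelihood test). It was 0.62 in litter A, 1.24 in B, 0.60 in C and −0.06 in D. It passed with DESeq2 (adjusted p = 0.014), with no filter on low counts in edgeR (adjusted p = 0.000102), and in edgeR without control 5 (0.79, adjusted p = 0.0235). Over all alternatives its adjusted p ran from 0.000102 to 0.866, and with the T-run level as covariate its log2 fold change was 0.14.

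Snora68, the other abundant H/ACA RNA, did not share that value. It stood at 13.9, 16.8, 14.7, 18.01 and 19.8 CPM in controls 1 to 5 and 14.8, 20.05, 17.3, 19.4, 17.4 and 16.9 CPM in mutants 1 to 6, and the groups overlapped almost completely. Its log2 fold change was 0.07 ± 0.11 (SE; 95% interval −0.18 to 0.31).

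Snora78, which lies in Snhg9, had a log2 fold change of 0.43 ± 0.25 (SE), beside 0.18 ± 0.14 for Snhg9. Snora33, from Rps12, stood at 0.42 ± 0.29 (SE). Without control 3 or mutant 6 they were 0.22 and 0.18, and without control 5 0.69 and 0.67. Snora31 and Snora41, which lie in Tpt1 and Eef1b2, were at 0.09 ± 0.27 and −0.05 ± 0.33. Over all alternatives run they ranged from −0.08 to 0.99 and from −0.37 to 0.08. Among members too low to test, Snora47 was chosen after its values were seen. It held 1, 1, 0, 2 and 1 reads in controls and 8, 3, 6, 3, 4 and 2 in mutants, so that the lowest mutant equalled the highest control in reads.

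**Figure D4:**
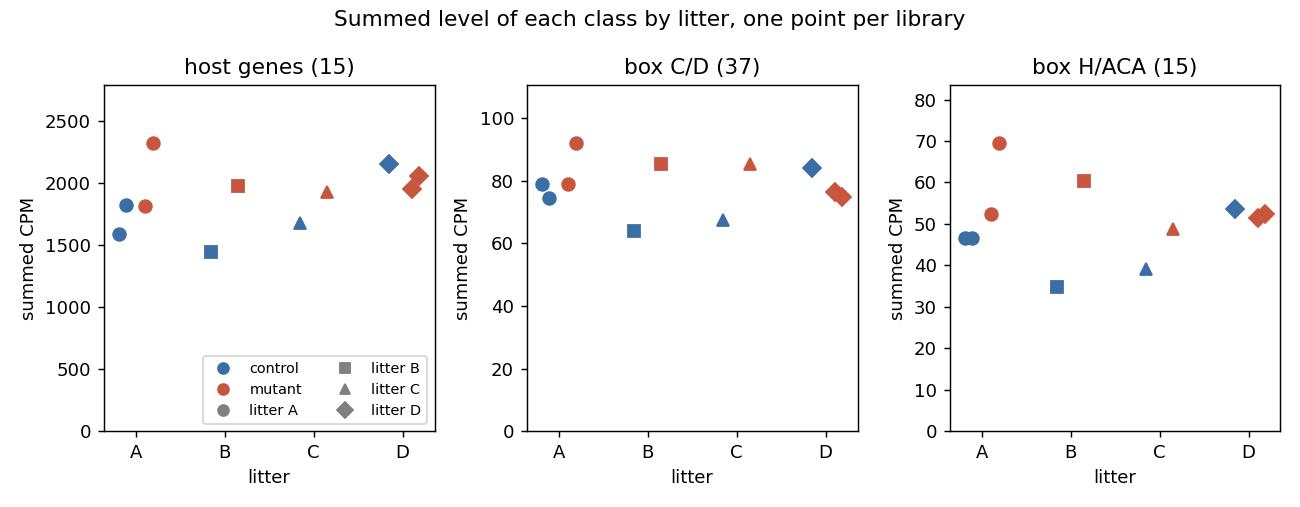
Summed CPM of the host, box C/D and box H/ACA members by litter, 1 point per library and coloured by genotype, on axes that start at 0. The control of litter D lies above both of its mutants in each of the 3 classes, whereas in litters B and C the mutant lies above the control.

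Cajal body RNAs were scarce. Scarna13, a guide for spliceosomal RNAs and the only one tested, stood at 1.01, 0.978, 0.600, 1.10 and 0.911 CPM in controls 1 to 5 and 1.10, 0.794, 1.07, 0.595, 1.02 and 1.17 CPM in mutants 1 to 6. The groups overlapped, and the log2 fold change was 0.10 ± 0.32 (SE). Scarna2, Scarna9 and Scarna17 held 0 to 9 reads per library, which is too few to compare.

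No member passed the litter test. Over all genes, 14 or 0.0885% differed between litters at an adjusted p under 0.05 in edgeR's quasi-likelihood test, and 0 of 40 members did. At an unadjusted p under 0.05, Snord49b, Snord7, Snhg9 and Snhg20 passed, against 13.5% of all genes.

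The genes that contain small RNAs were compared by kind. Of 40 such hosts found by coordinates and tested, the 15 ribosomal protein genes all had a positive log2 fold change, with a median of 0.21, while 7 of 17 other protein-coding hosts did, with a median of −0.12. That difference between kinds was not tested, and genes read from the same libraries are not independent measures. None of the 15 passed the genotype test, and 2 of 15 stayed above 0 with the T-run level as covariate. Ribosomal protein genes have many near-identical processed copies, so their counts are uncertain. Of the 40, 1 was called, beside 2.18% of all genes. It was Gm42715 around Snora30 (11 reads), lower in mutants with a log2 fold change of −0.81 (adjusted p = 0.0432 in edgeR's quasi-likelihood test). In the M21 annotation Snora30 lies in Srcap.

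Small RNAs could be set beside their own host in 24 pairs where both were tested. The small RNA value exceeded the host value in 13 pairs, the median was 0.09 for the small RNAs and 0.17 for the hosts, and in 23 of 24 pairs the gap was within 2 combined SE. In the 13 pairs with a ribosomal protein host, 10 small RNAs had a positive value, with a median of 0.08. Snord7 had its host AA465934 at −0.81 ± 0.45 (SE) on the same side of 0. The pair beyond 2 combined SE was Snord73a in Rps3a1, at −0.51 ± 0.30 against 0.15 ± 0.08. Small RNA rows also collect reads from unspliced host introns, so the members of a pair are not separate measurements.

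**Figure D5:**
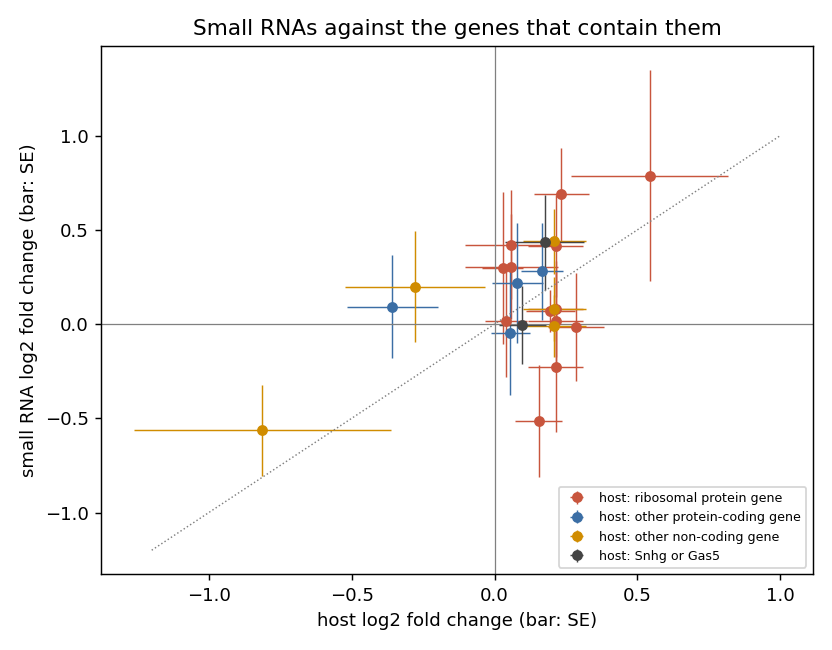
Log2 fold change of each of 24 small RNAs (vertical) against that of the gene that contains it (horizontal), with SE bars, coloured by kind of host; the dotted line marks equal values. All ribosomal protein hosts lie to the right of 0, while their small RNAs spread from −0.51 to 0.79.

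The proteins that bind and build these particles were read from lists of pathway genes, and none of their genes passed the genotype test. Of 4 box C/D core protein genes measured, 2 had a positive value, and the smallest p belonged to Nop56, the scaffold protein (−0.07 ± 0.07, SE). Of 4 H/ACA core genes 3 were positive, and Nhp2, an RNA-binding subunit, stood at 0.33 ± 0.10 (SE; adjusted p = 0.104 in edgeR's quasi-likelihood test), from a mean of 582 CPM in controls to 742 in mutants. Dkc1, the pseudouridine synthase, was at −0.03 ± 0.07 (SE). Of 12 assembly genes 9 were positive, with Naf1, an H/ACA assembly factor, at 0.35 ± 0.12 (SE).

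Nonsense-mediated decay, which degrades spliced host RNAs such as Gas5, was covered by 10 genes. Of these, 6 were positive, and their median was 0.0071. Upf1, the central helicase, was at −0.16 ± 0.07 (SE; adjusted p = 0.222 in edgeR's quasi-likelihood test). Among 1201 rows of other short non-coding RNAs, 934 held 0 reads and 18 were tested, with none called and a median of 0.27. Several of the 18 are long host transcripts of microRNAs. Mir6236 had the smallest p of that list, at 0.43 ± 0.12 (SE; adjusted p = 0.0751 in edgeR's quasi-likelihood test). Its mean of 724.5 CPM was far above the next of the 18, Mir17hg at 50.3 CPM. What RNA its reads come from was not tested.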

How the data were processed

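The deposited values are raw counts of reads per gene name, made by the authors with featureCounts 1.4.6-p4 on GENCODE M9 exons at a mapping quality of at least 10, without strand, per the file headers. Alignment with STAR 2.5.4b to mm10 is per the submitters' processing notes. Libraries were made from total RNA depleted of ribosomal RNA, per the labels' protocols, and RNA with an integrity number under 8 was rejected. The header lists 12 alignment files, and 11 libraries were analysed here. Their titles give a litter and an animal code. No 2 libraries of a group agreed within sampling noise (chi-square over degrees of freedom of at least 7.38 in the 25 pairs within groups).

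Counts were analysed in R 4.3.3 with edgeR 4.0.16: filterByExpr, TMM scaling and the two-sided quasi-likelihood F test on litter and genotype, with Benjamini-Hochberg adjustment over 15821 genes and a threshold of 0.05. The script was tested on simulated data. Log2 CPM used a prior count of 2. DESeq2 1.42.0 and limma 3.58.1 served as alternatives. Litter pairs the embryos per the labels. Deviations from group means correlated at a median of 0.13 in 8 same-litter pairs and −0.02 in 22 others. In the genotype test, p-values set the difference against the spread left between these libraries after the litter block.

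The members, gene lists and tests were chosen with earlier results of these data known. The rule named Gas5, any member past the threshold, and in each class the 5 most abundant members and the 3 highest and 3 lowest log2 fold changes among tested members with a mean of at least 1 CPM. In each pathway list it named the genes called or, failing that, the smallest p. Other members named by count or by pairing with these fall outside it and were chosen after their values were seen. Exon overlap and hosts were found from the coordinates in the count table.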

Additional observations from a re-analysis of the deposited data

Results flagged for a closer look

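Over 27 quantities, the tested members under the naming rule and the class sums, single libraries that stood far from the rest of their group were sought in 54 groups of 5 or 6 libraries, where chance gives about 1 in 20. This search found 1 such library. In control 3, Snord87 was at 1.36 log2 CPM (2.45 CPM), below the other 4 controls at 2.03 to 2.25 (3.97 to 4.65 CPM). The gap was 0.752 of the range. Control 3 was also the lowest control for 10 of the 13 tested hosts.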

How the results depend on the processing

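The count of genes called for genotype was 345. It was 1566 with no filter on low counts, 550 with a filter of 1 CPM in 5 libraries, 1166 with DESeq2 and 2 with the T-run level as covariate. It was 9, 3, 1 and 148 with litter A, B, C or D left out, and 1 to 850 with each library left out. Without the replicate block for litter it was 13, and no call on a member changed. The count called for litter was 14. It was 2 with upper-quartile scaling, 1583 with no filter, 546 with DESeq2, 23 with the covariate and 0 to 87 with each library left out. The cause was not tested.

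Members called numbered 0. With no filter they were 1 H/ACA RNA (Snora57) and 4 hosts (Gas5, Snhg8, Snhg4 and Snhg12), and with DESeq2 1 H/ACA RNA (Snora57), where 16 members got no adjusted p. With each library left out they ran from 0 to 1 in box C/D, H/ACA and hosts alike, the 1 being Snord104, Snora57 and Snhg8 without control 5.

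With the covariate the host median was −0.054, and 3 hosts were above 0. The box C/D and H/ACA medians with it were 0.24 and 0.12. Values that changed sign with it were Gas5 −0.12, Snord104 −0.15, Snora68 −0.25, Snhg5 −0.15, Snhg1 −0.060, Snhg6 −0.054, Snhg8 −0.054, Snhg4 −0.0014, Snord7 0.35, Snord87 0.30 and Snord73a 0.40. With upper-quartile scaling Snord87 was 0.032, Snord49a 0.027 and Snord72 0.020, and with limma-voom Snord87 was 0.0032. Without the replicate block Snord87 was 0.019 and Snord49a 0.013. Without litter A Snord87 was 0.28, Snord73a 0.031 and Snord72 0.057. Without litter B Snora41 was 0.056 and Scarna13 −0.092. Without litter D Snord87 was 0.034, Snord49a 0.12, Snord72 0.084, Snora31 −0.085 and Snora41 0.078. With each library left out, Snord87 ran from −0.20 to 0.11, Snord49a from −0.066 to 0.11, Snord72 from −0.14 to 0.12, Snora68 from −0.018 to 0.13, Snora31 from −0.085 to 0.37, Snora41 from −0.17 to 0.078 and Scarna13 from −0.092 to 0.18. The covariate was chosen after seeing the data.

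Sampling of few reads limits most small RNAs, and 31 members were too low to test. Rows inside other genes' exons, strand and spliced against unspliced RNA were not measurable from this table.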
